A study of Mus musculus with 12 samples.

Results

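The renin-angiotensin system and the peptidases of the kidney brush border that process angiotensins were followed on 12 whole-kidney arrays, 1 array per mouse. The genes are Ren1, Agt, Ace, Agtr1a, Agtr1b, Enpep, Mme and Atp6ap2. Each gene was read from the probe set whose annotation gives its symbol alone, and from the brightest such probe set where there were several. Of the 8 genes, 6 had such a probe set, exactly 1 each, among 19934 genes named in this way. Ren1 (renin) and Agtr1b (the second mouse form of the angiotensin II type 1 receptor) had none and were not analysed here.

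All mice were C57BL/6 females that had eaten a high-protein (HP) diet for 2 months, and their ages are not given in the sources used here. The mutants, Mut-/-, were of genotype Mut-/-;TgINS-Alb-Mut: they lack methylmalonyl-CoA mutase, a mitochondrial enzyme of propionate breakdown, and carry a Mut transgene driven by an albumin promoter, which is active in liver. The controls were heterozygotes, Mut+/-, and wild-type mice, Mut+/+, for which the genotype labels name no transgene. Effects of the transgene and of the missing enzyme therefore cannot be told apart. Each genotype had 4 mice, and the study compared these kidneys to ask what accompanies the renal disease of methylmalonic acidemia.

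Renin, released by juxtaglomerular cells of the afferent arteriole, cuts angiotensinogen (Agt) to angiotensin I, and angiotensin-converting enzyme (Ace) turns this into angiotensin II, which constricts vessels and retains salt through the type 1 receptor (Agtr1a). Aminopeptidase A (Enpep) trims angiotensin II to angiotensin III, and neprilysin (Mme) degrades angiotensins, natriuretic peptides and other small peptides. In the kidney Ace, Enpep and Mme are abundant on the brush border, the apical membrane of proximal tubule cells, and Ace also lies on endothelium. Atp6ap2 encodes the (pro)renin receptor, which is also an accessory subunit of the vacuolar proton pump.

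The 250 bases before and 50 after the annotated start site are shown for the 4 genes called in a comparison below, on all arrays or without mutant replicate 3. The windows shown differ in the matches they hold. They are RefSeq sequences of build GRCm38.p6, written 5′ to 3′ on the gene's strand. Capitals mark matches on either strand to the TATA box (TATAAA), the GC box (GGGCGG), the CCAAT box (CCAAT), a half-site of steroid hormone receptors (AGAACA) and a half-site of the factor HNF1 (GTTAAT), some of which overlap. The Ace window belongs to the upstream start (chr11:105967698-105967997, + strand), from which the somatic form is made, and the Mme window to the most upstream of 3 starts (chr3:63294961-63295260, + strand). The others are Atp6ap2 (chrX:12587509-12587808, + strand) and Enpep (chr3:129332700-129332999, - strand).
Ace: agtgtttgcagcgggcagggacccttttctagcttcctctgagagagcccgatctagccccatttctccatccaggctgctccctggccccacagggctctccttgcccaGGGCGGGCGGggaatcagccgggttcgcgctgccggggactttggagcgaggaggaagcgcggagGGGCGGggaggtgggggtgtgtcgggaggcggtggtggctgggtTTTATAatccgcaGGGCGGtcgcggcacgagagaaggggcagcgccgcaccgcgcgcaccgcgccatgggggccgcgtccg
Mme: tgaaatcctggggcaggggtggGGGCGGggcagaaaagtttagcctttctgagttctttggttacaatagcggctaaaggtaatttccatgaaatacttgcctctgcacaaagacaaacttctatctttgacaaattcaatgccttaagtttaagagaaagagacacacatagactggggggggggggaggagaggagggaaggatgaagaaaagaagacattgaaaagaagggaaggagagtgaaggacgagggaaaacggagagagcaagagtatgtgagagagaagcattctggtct
Atp6ap2: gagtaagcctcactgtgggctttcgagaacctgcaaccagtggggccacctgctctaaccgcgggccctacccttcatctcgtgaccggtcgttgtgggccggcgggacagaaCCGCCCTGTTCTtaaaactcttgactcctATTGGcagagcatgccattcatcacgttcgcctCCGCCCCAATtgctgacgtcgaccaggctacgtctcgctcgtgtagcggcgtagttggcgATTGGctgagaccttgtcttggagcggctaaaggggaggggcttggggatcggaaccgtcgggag
Enpep: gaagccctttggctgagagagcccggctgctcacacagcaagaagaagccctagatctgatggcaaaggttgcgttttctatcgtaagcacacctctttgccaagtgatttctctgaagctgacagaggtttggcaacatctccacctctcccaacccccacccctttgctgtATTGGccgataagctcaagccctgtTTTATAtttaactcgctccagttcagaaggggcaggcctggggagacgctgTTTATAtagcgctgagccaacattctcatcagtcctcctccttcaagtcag

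The Ace window held 4 GC boxes and a match to the TATA box in reverse orientation, 31 bases before the start, with 69.7% G and C. Atp6ap2 held 2 GC boxes, 3 CCAAT boxes and 1 steroid receptor half-site. Enpep had 2 reverse matches to the TATA box and a CCAAT box but no GC box, and this Mme window had 1 GC box. Mme windows at the other starts, not shown, held 2 GC boxes each and also CCAAT boxes, with 73% and 72.3% G and C against 46% in the window shown. Over all 32851 promoter windows of this length, 13.6% held TATAAA, 35.7% GGGCGG, 37.4% CCAAT, 19% AGAACA and 7.1% GTTAAT. These matches describe the letters of the windows only.

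Values are log2 signals after RMA, which corrects for background, brings the arrays to 1 distribution and gives 1 value per probe set, so a difference of 1 is a 2-fold change. Array medians lay between 7.17 and 7.23. Mmut, the gene of the missing enzyme, was at 8.2 to 8.47 in mutants, 9.87 to 9.97 in heterozygotes and 10.47 to 10.6 in wild-type mice, and its probes were not checked against the deleted part. Markers of proximal tubule segments S1 and S2 averaged 11.85 on mutant replicate 3, the lowest array, and between 11.96 and 12.23 on the other 11 arrays. Mutant replicate 3 stood apart. All 8 listed transcripts of the adrenal cortex, the gland beside the kidney that makes aldosterone under angiotensin II, were highest on that array, from 7.92 to 12.65. On the other 11 arrays these transcripts stayed between 4.12 and 7.17. Cyp11b1, a steroid 11-beta-hydroxylase gene, read 12.65 there and 5.4 to 6.58 elsewhere, and Star, which brings cholesterol into mitochondria for steroid synthesis, read 11.99 against 6.64 to 6.91. Cyp11b2, the aldosterone synthase gene, read 8.7 against 6.36 to 6.67. The members' differences are therefore given with and without mutant replicate 3, and the part of the adrenal transcripts in any member's level was not tested.

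**Figure D1:**
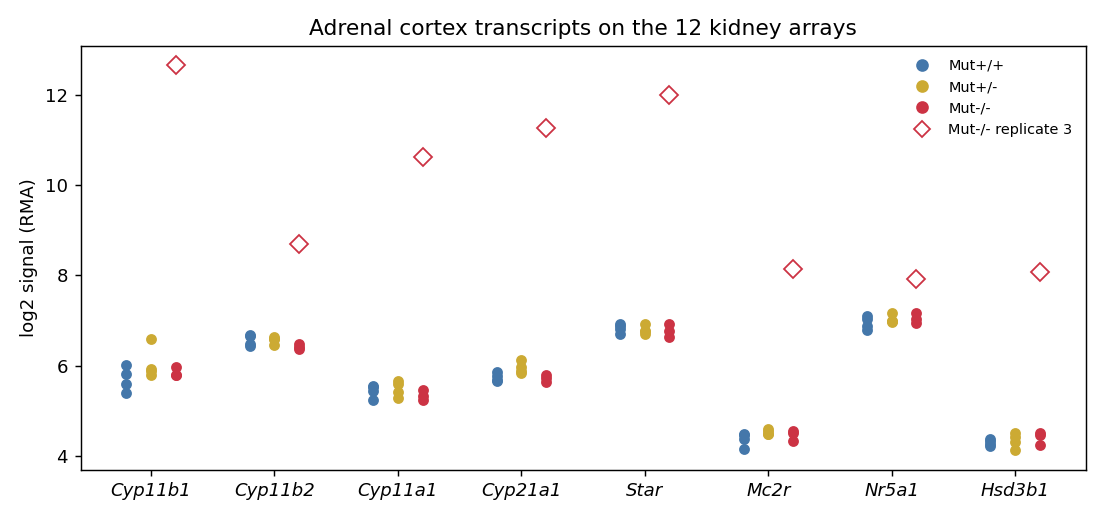
Log2 signal of 8 adrenal cortex genes (x axis) on the 12 arrays, with wild-type arrays in blue, heterozygotes in yellow, mutants in red and mutant replicate 3 as an open diamond. Mutant replicate 3 lies above every other array for all 8 genes, from 0.75 above the next array for Nr5a1 to 6.07 for Cyp11b1.

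Against wild type, mutant kidneys had lower transcript levels of Ace, Mme and Atp6ap2, by 1.82-fold, 1.57-fold and 1.23-fold, and no member was called higher. The limma fit called 3 of the 6 genes (adjusted p under 0.05), all lower, where it called 9.66% of all 19934 genes, 6.69% lower and 2.96% higher. The same 3 genes had groups without overlap, as did 14.7% of all genes. When mutant replicate 3 was left out these 3 were called again and Enpep was called higher, 4 of 6, against 7.79% of all genes (5.27% lower, 2.52% higher), and 4 of 6 had no overlap, against 18.4% of all genes. Against heterozygotes 1 of 6 was called, lower, where 2.54% of all genes were called (1.46% lower, 1.07% higher), and 3 of 6 had no overlap, against 9.69%. Leaving that array out gave 3 of 6, 2 lower and 1 higher, where 2.2% of all genes were called (1.14% lower, 1.06% higher), and 4 of 6 without overlap, against 13.8%. The median difference over the 6 genes was -0.24 on the log2 scale (-0.22 without mutant replicate 3), where that of all genes was 0.004 (-0.008). The genes were picked with results of these arrays known, so these shares describe them and are no independent evidence. In whole kidney, fewer cells of a type and less RNA per cell cannot be told apart.

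**Figure D2:**
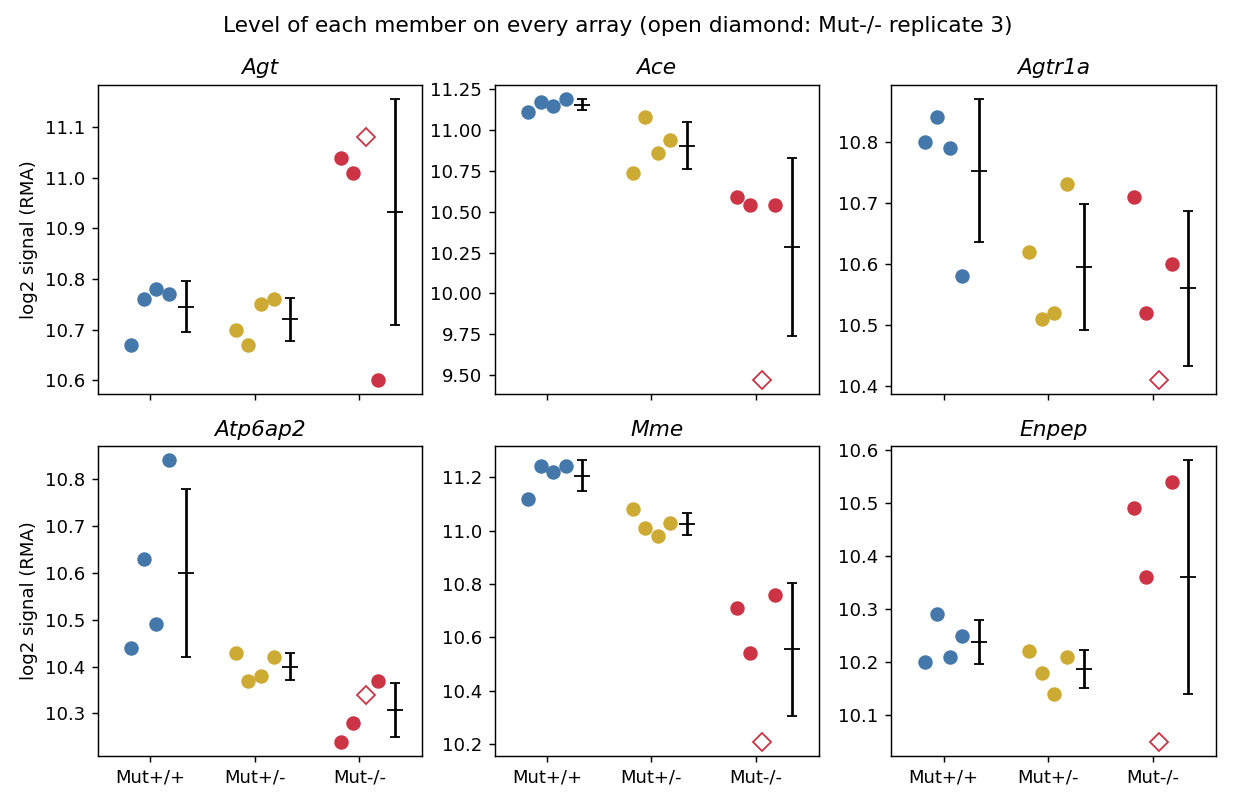
Log2 signal of the 6 genes on each array by genotype, each panel with its own scale; circles are single mice, the open diamond is mutant replicate 3, and the bar beside each group is its mean ± SD (n = 4). Ace, Mme and Atp6ap2 read highest in wild type and lowest in mutants with no overlap between genotypes, while for Agt and Enpep 3 of 4 mutants lie above all controls.

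Angiotensinogen, the substrate of renin, is made mainly in liver and also in the proximal tubule. Agt read 11.04, 11.01, 11.08 and 10.6 in the mutants, 10.7, 10.67, 10.75 and 10.76 in heterozygotes and 10.67, 10.76, 10.78 and 10.77 in wild-type mice. Mutant replicates 1, 2 and 3 were thus above all 8 controls, and mutant replicate 4 was below them. The mean difference from wild type was 0.19 on the log2 scale (95% interval 0 to 0.37, limma adjusted p = 0.206), and 0.21 from heterozygotes (95% interval 0.02 to 0.4, adjusted p = 0.245), so neither was called. Leaving out mutant replicate 3 gave a difference from wild type of 0.14 (adjusted p = 0.417) and from heterozygotes of 0.16 (adjusted p = 0.451). Without mutant replicate 4, in contrast, Agt was higher by 0.3 than in wild type (limma adjusted p = 0.00396) and by 0.32 than in heterozygotes (adjusted p = 0.00548). The call therefore turned on 1 mouse.

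Ace had the largest difference of the 6 genes against wild type, with and without mutant replicate 3. It read 10.59, 10.54, 9.47 and 10.54 in the mutants, 10.74, 11.08, 10.86 and 10.94 in heterozygotes and 11.11, 11.17, 11.15 and 11.19 in wild-type mice. The 3 genotypes did not overlap: every mutant was below every heterozygote, and every heterozygote below every wild-type mouse. Mutant replicate 3 was 1.09 below the mean of the other mutants, which lay within 10.54 to 10.59. The group means were 10.29 ± 0.55 in mutants, 10.9 ± 0.14 in heterozygotes and 11.15 ± 0.03 in wild-type mice (SD, n = 4). Mutant and wild type differed by -0.87 (SE 0.19, limma adjusted p = 0.0135, 4 of 4 mutants lower), or 1.82-fold. With mutant replicate 3 left out the fall was smaller and its error narrower, at 1.51-fold (log2 difference -0.59, SE 0.07, limma adjusted p = 0.000348). Against heterozygotes the difference was 1.53-fold and not called with all arrays (log2 difference -0.62, SE 0.19, limma adjusted p = 0.122), while without mutant replicate 3 it was 1.27-fold and called (log2 difference -0.34, SE 0.07, limma adjusted p = 0.0228). Heterozygotes read 1.19-fold below wild type, which was not called (adjusted p = 0.655, and adjusted p = 0.123 without mutant replicate 3).

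The receptor gene Agtr1a was not called in any comparison. It read 10.71, 10.52, 10.41 and 10.6 in mutants, 10.62, 10.51, 10.52 and 10.73 in heterozygotes and 10.8, 10.84, 10.79 and 10.58 in wild-type mice. The groups overlapped, because 1 wild-type mouse, replicate 4, was as low as mutants and heterozygotes. The mutant minus wild-type difference was -0.19 (95% interval -0.35 to -0.02, limma adjusted p = 0.143), and -0.14 without mutant replicate 3 (95% interval -0.3 to 0.02, adjusted p = 0.317). Against heterozygotes it was -0.03 with all arrays and 0.02 without that array. Adrenal cortex also expresses this receptor, and the part of adrenal transcripts in its reading was not tested. The 2 mouse type 1 receptor genes are close in sequence, and how far this probe set also reads Agtr1b was not checked.

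Atp6ap2 read 10.24, 10.28, 10.34 and 10.37 in mutants, 10.43, 10.37, 10.38 and 10.42 in heterozygotes and 10.44, 10.63, 10.49 and 10.84 in wild-type mice. The means were 10.31 ± 0.06, 10.4 ± 0.03 and 10.6 ± 0.18 (SD, n = 4), in the same order. Wild-type mice spread more widely than the other groups, with replicate 4 highest, and to more decimals than shown no mutant reached a heterozygote. Mutants were 1.23-fold below wild type (log2 difference -0.29, SE 0.07, limma adjusted p = 0.0235), and also 1.23-fold without mutant replicate 3 (adjusted p = 0.0363). That array was inside the range of the other mutants here, at 10.34. The call was lost without mutant replicate 1, mutant replicate 2 or wild-type replicate 2, with limma adjusted p = 0.0521, 0.0513 and 0.0649, and when only the 2 groups entered the fit (adjusted p = 0.0709). Neither mutant against heterozygote (log2 difference -0.09, limma adjusted p = 0.639) nor heterozygote against wild type (log2 difference -0.2, adjusted p = 0.317) was called.

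Mme, the neprilysin gene, read 10.71, 10.54, 10.21 and 10.76 in mutants, 11.08, 11.01, 10.98 and 11.03 in heterozygotes and 11.12, 11.24, 11.22 and 11.24 in wild-type mice. The means were 10.55 ± 0.25, 11.03 ± 0.04 and 11.2 ± 0.06 (SD, n = 4). Again no genotype overlapped another and mutant replicate 3 was lowest. The fall against wild type was 1.57-fold (log2 difference -0.65, SE 0.09, limma adjusted p = 0.00123) and held under all 21 other settings tried, between -0.72 and -0.53. Against heterozygotes it was 1.39-fold (log2 difference -0.47, SE 0.09, limma adjusted p = 0.0196), the only call among the 6 genes in that comparison, where 2.54% of all genes were called. Without heterozygote replicate 1 or 4 that call was lost (limma adjusted p = 0.0634 and 0.0595). When mutant replicate 3 was left out, the fall of Mme was 1.45-fold against wild type (limma adjusted p = 0.000305). Against heterozygotes it was then 1.28-fold (adjusted p = 0.00882).

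Enpep, the aminopeptidase A gene, went the other way in 3 of 4 mutants. It read 10.49, 10.36, 10.05 and 10.54 in mutants, 10.22, 10.18, 10.14 and 10.21 in heterozygotes and 10.2, 10.29, 10.21 and 10.25 in wild-type mice. Mutants 1, 2 and 4 were above all controls and mutant replicate 3 was below all of them. On all arrays the difference from wild type was 0.12 (95% interval -0.06 to 0.31, limma adjusted p = 0.419), and from heterozygotes 0.17 (95% interval -0.01 to 0.35, adjusted p = 0.365). Without mutant replicate 3 Enpep was 1.17-fold higher than in wild type (log2 difference 0.23, SE 0.05, limma adjusted p = 0.0207) and 1.21-fold higher than in heterozygotes (log2 difference 0.28, SE 0.05, adjusted p = 0.0196). Enpep was thus called only with that array left out, on which 4 of the 6 genes had their lowest mutant reading. Over all genes 24.9% had their lowest mutant reading there.

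**Figure D3:**
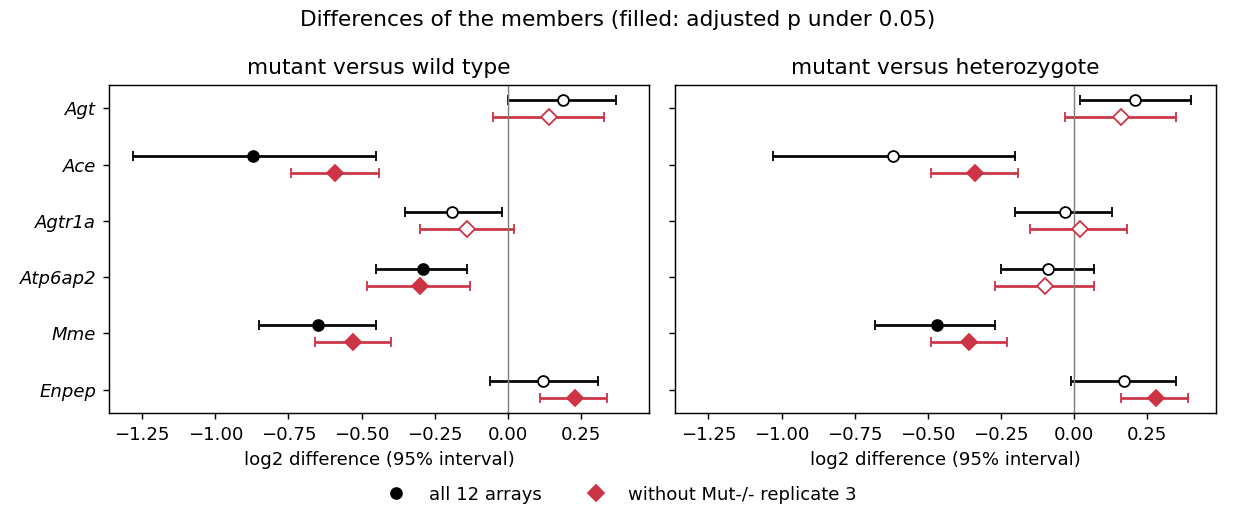
Log2 differences of the 6 genes (x axis) for mutant minus wild type and mutant minus heterozygote, with 95% intervals, for all 12 arrays (black circles) and without mutant replicate 3 (red diamonds); filled symbols passed an adjusted p under 0.05. Ace and Mme lie below 0 in both panels, Enpep moves away from 0 without replicate 3, and no interval of Agtr1a or Agt is filled.

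Between heterozygotes and wild-type mice none of the 6 genes was called by limma, and 0.135% of all genes were called there (0.0702% lower, 0.0652% higher). With mutant replicate 3 out of the fit again none was called, and 0.276% of all genes were (0.171% lower, 0.105% higher). All 6 differences were below 0, between -0.25 for Ace and -0.02 for Agt, the last of which turned to 0.01 after quantile normalisation. In this comparison 3 of 6 had no overlap, against 8.44% of all genes. Groups without any overlap in the order mutant, heterozygote, wild type were seen for 3 of the 6 genes, Ace, Mme and Atp6ap2, and for 0.637% of all genes (0.727% without mutant replicate 3, with the same 3 members). The gaps between heterozygotes and wild type were narrow. The highest heterozygote and lowest wild type read 11.08 and 11.11 for Ace, 11.08 and 11.12 for Mme, 10.43 and 10.44 for Atp6ap2. The comparisons share samples, so the steps are not independent of each other.

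Of 12 other brush border peptidases and a relative, 10 were measured, and 4 were lower in mutants than in wild type and none higher (6 not called, median log2 difference -0.41, and -0.28 without mutant replicate 3, where all genes had 0.004 and -0.008). Over all genes 6.69% were called lower and 2.96% higher. Dpp4, dipeptidyl peptidase 4, was 1.42-fold lower (log2 difference -0.51, SE 0.08, limma adjusted p = 0.0028). Its readings were 9.66, 9.86, 9.55 and 9.72 in mutants and 10.06, 10.29, 10.19 and 10.3 in wild-type mice, with no overlap. Heterozygotes averaged 9.75, close to the mutants, and the difference between these groups was -0.05 (95% interval -0.23 to 0.14). Cltrn, collectrin, a protein without peptidase activity that carries amino acid transporters to the membrane, was 1.35-fold lower (adjusted p = 0.00304). Naaladl1 was 1.54-fold lower (adjusted p = 0.00077) at group means under 6, and Mep1a, the meprin alpha subunit, 1.24-fold lower (adjusted p = 0.0206).

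Mutant replicate 3 had the lowest mutant reading in 8 of these 10 genes as well. When it was left out 3 were lower, Dpp4, Cltrn and Naaladl1 (adjusted p from 0.00132 to 0.00695), where 5.27% of all genes were called lower and 2.52% higher. Mep1a just missed the threshold (log2 difference -0.27, limma adjusted p = 0.0502). Xpnpep2, a membrane aminopeptidase P, was then higher, 1.47-fold above wild type (log2 difference 0.56, SE 0.11, limma adjusted p = 0.0109). Against heterozygotes it was already called on all arrays, 1.56-fold higher (adjusted p = 0.0417). Mep1b, the meprin beta subunit, showed how far that array could reach: its mutants read 10.1, 9.49, 8.45 and 9.67 against 9.94 to 10.21 in wild-type mice (log2 difference -0.66, adjusted p = 0.108). Calls among these genes thus went in both directions.

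**Figure D4:**
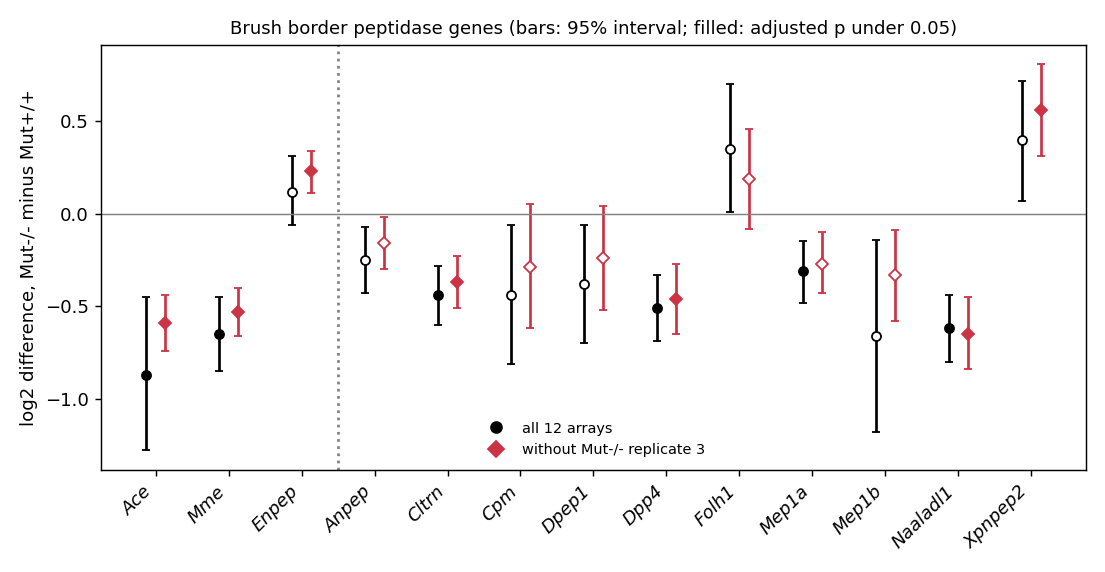
Log2 difference of mutant minus wild type (y axis) for 13 brush border genes, the 3 members at left of the dotted line, with 95% intervals; black circles use all 12 arrays, red diamonds leave out mutant replicate 3, and filled symbols passed an adjusted p under 0.05. Ace and Mme sit with Dpp4, Cltrn and Naaladl1 below 0, while Enpep, Xpnpep2 and Folh1 are above it.

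Of the other renin-angiotensin genes, such as the type 2 receptor, the Mas receptor, chymase and further angiotensin-cutting peptidases, 16 of 18 were measured and limma called none in mutant against wild type. Agtr2, Mas1 and Cma1, the genes of these receptors and of chymase, had group means under 6, as had Ctsg and Cpa3. At such low signals a change could be missed. The smallest p in the list belonged to Prcp, a carboxypeptidase that cuts angiotensins, with a difference of 0.58 (95% interval 0.19 to 0.96, limma adjusted p = 0.0605). It read 10.09, 9.46, 10.47 and 10.12 in mutants and 9.31 to 9.59 in wild-type mice, and was not called without mutant replicate 3 either (log2 difference 0.43, adjusted p = 0.144). It was called without mutant replicate 2 (log2 difference 0.77, adjusted p = 0.0065). Among 16 measured regulators of renin release 1 was lower and none higher: Npr1, the atrial natriuretic peptide receptor, 1.16-fold (limma adjusted p = 0.0461). As 6.69% of all genes were called lower and 2.96% higher, 1 of 16 is near the share of all genes. That call did not hold in 14 of 21 other settings.

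The salt-retaining arm beyond the type 1 receptor was read through genes of the aldosterone response, of which 14 of 15 were measured, with 3 lower and none higher. Over all genes 6.69% were called lower and 2.96% higher. Of the 14 differences 11 were below 0 (median -0.1), while Tsc22d3, Zbtb16 and Sgk1 stood at 0.24, 0.41 and 0.03. None of these was called (limma adjusted p = 0.0666 for Tsc22d3), and over the settings tried 0 to 1 genes of the list were higher. Zbtb16 read 10.59 on mutant replicate 3, 8.91 to 9.61 on the other mutants and 8.67 to 9.45 in wild-type mice. Stk39, the kinase that activates the sodium chloride cotransporter, was 1.28-fold lower (limma adjusted p = 0.00718) and Slc12a3, that cotransporter, 1.27-fold lower (adjusted p = 0.00878). Both were also called without mutant replicate 3 (adjusted p = 0.0168 and 0.0169), while Nedd4l, the ubiquitin ligase of the sodium channel, was 1.15-fold lower and lost its call (adjusted p = 0.0457, then 0.103). The sodium channel subunits Scnn1a, Scnn1b and Scnn1g were not called, at -0.06, -0.02 and -0.13, and Scnn1b stood at 0.01 when mutant replicate 3 was left out.

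Among genes of the kinins, natriuretic peptides and endothelins, small vasoactive peptides of which Mme or Ace cuts several, 3 of 10 measured were lower and none higher. Over all genes 6.69% were called lower and 2.96% higher in mutants against wild type. Npr2, the receptor of C-type natriuretic peptide, was 1.56-fold lower (limma adjusted p = 0.00848) and 1.41-fold lower without mutant replicate 3 (adjusted p = 0.00777). Kng2, a kininogen gene, was 1.16-fold lower (adjusted p = 0.0138, and 0.0261 without mutant replicate 3), and Npr1 was the third. The proton pump, with which the Atp6ap2 protein is associated, had 5 of 18 measured subunits lower and none higher in mutants than in wild type (median log2 difference -0.11). Against heterozygotes 2 were higher and none lower (median -0.02), where 1.07% of all genes were called higher and 1.46% lower. They were Atp6v1g1 by 1.16-fold (limma adjusted p = 0.0364) and Atp6v0a4 by 1.2-fold (adjusted p = 0.0485, and 0.0891 without mutant replicate 3). Below wild type, Atp6v0b was 1.24-fold lower (limma adjusted p = 0.00853), Atp6v1a 1.19-fold (adjusted p = 0.00908), Atp6v0d2 1.18-fold (adjusted p = 0.037) and the other accessory subunit gene, Atp6ap1, 1.16-fold (adjusted p = 0.0107). Of these, Atp6v0b, Atp6v1a and Atp6ap1 were also lower when mutant replicate 3 was left out (3 of 18, against 5.27% of all genes), and Atp6v0d2 was not called in that fit (adjusted p = 0.0584).

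Markers of several cell types were called as well, and their part in the members' differences was not tested. Those of proximal tubule segments S1 and S2 shifted little as a list, with a median log2 difference from wild type of 0.02 (0.01 without mutant replicate 3). Over all genes 6.69% were called lower and 2.96% higher against wild type. Without mutant replicate 3 these shares were 5.27% and 2.52%. Of 9 markers of proximal tubule segment S3, 6 were lower in mutants than in wild type and none higher, their mean being 9.51 on mutant replicate 3, 9.92 to 10.16 on the other mutants and 10.31 to 10.41 in wild-type mice. Slc22a7, an organic anion transporter, was 2.87-fold lower (limma adjusted p = 0.00973), and 2.16-fold lower without mutant replicate 3, when 5 of the 9 were lower and 1 higher. Of 9 markers of S1 and S2, 1 was called against wild type, Cubn, the endocytic receptor cubilin, 1.28-fold lower (adjusted p = 0.00401). Against heterozygotes Cubn was 1.21-fold lower and Slc5a12, a lactate transporter, 1.42-fold higher (adjusted p = 0.00961). Of 13 endothelial markers 6 were lower and none higher, with list means of 8.83 on mutant replicate 3, 9.11 to 9.13 on the other mutants and 9.26 to 9.38 in wild-type mice. Podocyte markers were lower in 4 of 7 cases, among them Podxl, 1.32-fold (adjusted p = 0.00198, and 1.29-fold without mutant replicate 3), and mesangial and smooth muscle markers in 4 of 10, among them Itga8, 1.6-fold (adjusted p = 0.00808, and 1.43-fold without mutant replicate 3). Leukocyte markers had 2 of 10 higher, Lyz2 by 2.4-fold (adjusted p = 0.0281) and Cd68 by 1.57-fold (adjusted p = 0.0342, and 0.083 without mutant replicate 3), and 1 lower, Csf1r. The call of Lyz2 was lost without mutant replicate 2 or 4, without wild-type replicate 2, 3 or 4 and with the trended robust prior (adjusted p from 0.0546 to 0.0847), and over the settings tried 0 to 2 leukocyte markers were higher. The median log2 difference of this list from wild type was 0.34 in mutants and also 0.34 in heterozygotes, where none was called. Against heterozygotes the median of the mutants was -0.07, with none called higher and 1 lower. Of 10 hepatocyte genes 3 were lower, Ttr by 4.93-fold, Alb by 3.2-fold and Serpina1c, the last at group means under 6, and none higher. As a list they did not shift 1 way: 5 of 10 differences were below 0, with a median of 0.03. Without mutant replicate 3, 7 of 10 were below 0, with a median of -0.06. With mutant replicate 3 left out, the genes called lower were 5 of 13 endothelial, 4 of 7 podocyte, 4 of 10 mesangial and smooth muscle and 3 of 10 hepatocyte markers.

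For Ace, Mme and Atp6ap2, the members called on all 12 arrays, the genes with the closest profile over the arrays were sought among 14892 named genes. Closeness was the root mean square difference after each gene's own mean was subtracted. Over 12 arrays Ace was closest to Slfn5, Ppic and Sap30 (0.135, 0.148 and 0.156 on the log2 scale, against a spread of Ace itself of 0.461). Without mutant replicate 3 the closest were Gpd2, Ttll1 and Abat, so the neighbours of Ace rested on that array. Mme was closest to Ube2v2, Oxct1 and F8 (0.0729, 0.076 and 0.0775), of which Ube2v2 was again among the closest without that array. Atp6ap2 had the same closest genes, Naa50, Slc36a4 and Tbc1d8b, with all arrays (0.0503, 0.0522 and 0.0579) and without mutant replicate 3.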

How the data were processed

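Total RNA of whole kidneys, 1 array per mouse, was hybridised to mouse gene 1.0 ST arrays per the labels, whose labelling text names a human array of the same series. The deposited values of the authors are 1 log2 signal per probe set and array, and the submitters' processing notes name RMA and Affymetrix Expression Console 1.2.1. RMA shrinks differences of dim genes, and a shift common to all genes is removed by it. The values were used as deposited. No build is named for the probe sets.

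Of 35552 probe sets, 21785 had 1 gene symbol in the platform annotation, 1621 several, and 12146 were not listed there. The brightest probe set stood for each of 19934 genes. Gene names were compared through Entrez identifiers with RefSeq for GRCm38.p6 (21694 matched, 0 changed). Genotypes and replicate numbers came from the sample titles.

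A limma 3.58.1 fit (R 4.3.3) of all 3 groups on all genes gave the differences, with Benjamini-Hochberg adjustment over 19934 genes. A gene was called, or described as higher, lower, risen or fallen, at an adjusted p under 0.05. The p-values measure the spread between mice, and their precision is limited by the number of arrays. The fit was tested on simulated data.

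Besides the members, up to 4 called genes with the largest differences were named per list, or the one with the smallest p. The members and the lists were chosen with earlier results of these data known. Mep1b, Xpnpep2, the sodium channel subunits, Tsc22d3, Zbtb16, Sgk1, Ptgs2 and the adrenal genes beyond Nr5a1 were named after their values were seen. Alternatives were leaving out each array, a block for the replicate number, a filter at a group mean of 6, other uses of probe sets, array weights, a trended robust prior, 2 groups per fit, median centring and quantile normalisation.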

Additional observations from a re-analysis of the deposited data

Results flagged for a closer look

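In groups of 4 arrays, a reading is listed here when its gap to the nearest other reading exceeded the 95% limit of Dixon's test. Of 180 groups of readings, 22 did so. Chance gives about 1 in 20, but the groups include genes named after their values were seen, so the count is no test against chance. Among the members these were Ace at 9.47 on mutant replicate 3 (next mutant 10.54) and Agt at 10.6 on mutant replicate 4 (next 11.01). Of the adrenal cortex genes, 7 stood out on mutant replicate 3: Cyp11b1 at 12.65, Star at 11.99, Cyp21a1 at 11.27, Cyp11a1 at 10.61, Cyp11b2 at 8.7, Mc2r at 8.14 and Hsd3b1 at 8.06. The same array was low for the S3 marker Slc22a13 (10.54), the endothelial Emcn (10.2) and Alb (7.56).

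Ptgs2, the cyclooxygenase gene of the renin release list, read 10.11 on mutant replicate 2 and 6.82 to 7.26 on the other mutants. Acta2, smooth muscle actin, read 9.6 on the same array (next 9.11). Ptpro, a podocyte phosphatase, read 7.89 on mutant replicate 4. In heterozygotes Atp6v0d2 read 9.76 and Serpina1f 11.16 on replicate 1, Serpina1c 5.07 and Nr5a1 7.17 on replicate 2, and Ttr 9.55 on replicate 3. In wild-type mice Naaladl1 read 5.77 on replicate 1 and Slc22a7 9.99 on replicate 3.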

How the results depend on the processing

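For mutant against wild type the count of called members was 3 and ran from 2 to 4 over 21 other settings, and for heterozygote against wild type it was 0 in all of them. For mutant against heterozygote the count of 1 became 0 when only the 2 groups entered the fit, and ranged from 0 to 3 over the arrays left out. Over all genes the called counts of 1925, 506 and 27 in the 3 comparisons ranged from 1019 to 2366, 191 to 755 and 5 to 163. The upper ends 2366 and 755 count probe sets, from the setting that tested each of 21785 probe sets on its own. With the replicate number as a block (replicate block) 3, 1 and 0 members were called, the same counts, and the fall of Mme against wild type had a limma adjusted p = 0.00289. Among the other named genes the block ended the calls of Nedd4l, Npr1, Atp6v0d2, Atp6v0e, Cnn1 and Cd68 against wild type. Deviations of same-numbered arrays correlated between -0.239 and 0.168, with 1 of 12 pairs over 0.1. The labels state no pairing, and such correlations cannot show whether same-numbered mice were paired.

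Signs changed for uncalled differences only. Agtr1a against heterozygotes became 0.02 without mutant replicate 3 and 0.01 without heterozygote replicate 4, and was lowest, -0.08, without mutant replicate 1. Agt in heterozygotes against wild type became 0.01 after quantile normalisation. Ptgs2 against wild type ranged from -0.19 without mutant replicate 2 to 0.91 without mutant replicate 4. With each array left out in turn, Cyp11b2 ranged from -0.14 to 0.64, Cyp11a1 from -0.1 to 1.69, Star from -0.05 to 1.74 and Cyp21a1 from -0.02 to 1.86, each lowest without mutant replicate 3. Beyond the construction of these settings the cause was not tested. The leaving out of mutant replicate 3 for the gene lists was chosen after seeing the data.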
